A study of Rattus norvegicus with 9 samples.

Results

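Endothelin 1 and angiotensin II are small peptides that contract vessels and activate mesenchymal cells, and 7 genes of their production and sensing were followed in rat pancreatic stellate cells: Edn1, Ednra, Ednrb, Ece1, Agtr1a, Agt and Ace. They were taken by name from the array's gene table, and 5 of the 7 had a row that names 1 gene: Edn1, Ece1, Agtr1a, Agt and Ace, each with 1 row, out of 14506 genes in all. The endothelin receptors Ednra and Ednrb were not analysed here. The cells came from male Sprague Dawley rats and had been separated on a Nycodenz density gradient. For each culture 1000000 cells were plated in a 10 cm dish and kept for 72 h in Iscove's medium with 10% foetal bovine serum. By the labels the groups differed in the surface: bare plastic (4 arrays), collagen I (3 arrays) or Matrigel, a basement membrane extract (2 arrays). The labels do not give the animals' age, whether animals were pooled or whether arrays came from separate animals, so each p-value covers the array-to-array spread alone, and that spread may be technical.

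Edn1 encodes a precursor that is cut by furin and then by the endothelin converting enzyme, the product of Ece1, to yield endothelin 1. This peptide acts on the receptors encoded by Ednra and Ednrb. Agt encodes angiotensinogen, which renin cuts to angiotensin I; the product of Ace, angiotensin converting enzyme, then makes angiotensin II, which acts on the type 1 receptor encoded in rats by Agtr1a and Agtr1b. Both receptor families couple to Gq and G12/13 proteins, and thereby to calcium release and contraction. In stellate cells both peptides are known for driving contraction, division and matrix production.

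The promoters of the 2 members that fell on both matrices are shown first, so that the letters upstream of each gene stand beside its values. Sequences are from RefSeq (GRCr8), which held a promoter for 4 of the 5 measured members (not Agt), and positions count back from the annotated start site. The Edn1 stretch is chr17:22666788-22666937 on the minus strand, the farther 150 of its 250 upstream bases. The Agtr1a stretch is chr17:34435433-34435682 on the minus strand, all 250 upstream bases. Capitals mark matches to the AP-1, GATA and TATA letters given below.
Edn1: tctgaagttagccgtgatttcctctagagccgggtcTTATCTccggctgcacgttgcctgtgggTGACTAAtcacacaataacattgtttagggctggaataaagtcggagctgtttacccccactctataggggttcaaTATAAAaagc
Agtr1a: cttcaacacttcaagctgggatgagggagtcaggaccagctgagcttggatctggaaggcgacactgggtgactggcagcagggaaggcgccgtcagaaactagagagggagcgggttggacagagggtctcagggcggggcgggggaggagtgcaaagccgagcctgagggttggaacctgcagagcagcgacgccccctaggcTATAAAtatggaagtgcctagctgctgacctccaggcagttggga

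Both strands of the 250 upstream bases were searched. The letters searched for AP-1 were TGANTCA or TGACTAA. Those for GATA were AGATAA, then also TGATAA, then also AGATAG and then also TGATAG. The TATA box was searched as TATAAA, TEAD sites were searched as GGAATG, and the hypoxia response core was searched as ACGTG or GCGTG. Edn1 held TGACTAA (AP-1) at -186 to -180, the letters TTATCT (on the other strand, read as GATA) at -214 to -209, TATAAA at -110 to -105 and CACGT (hypoxia core on the other strand) at -201 to -197. Agtr1a held TATAAA at -45 to -40. Ace held TTTATA, which is TATA on the other strand, at -42 to -37. Ece1 had none of these letters. TGANTCA and the TEAD letters were in none of the 4 promoters, so the AP-1 match of Edn1 rests on TGACTAA alone. No match in these promoters overlapped another. Of 33469 rat promoters of the same length, 8.12% held AP-1 letters, 27.0% GATA letters, 12.9% TATA letters, 12.1% TEAD letters and 36.7% the hypoxia core. A match describes letters only, and no binding was measured.

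The arrays were Affymetrix Rat Gene 1.0 ST arrays, and all values below are deposited log2 expression values after robust multi-array averaging (RMA). Array medians over genes lay between 5.30 and 5.38. Arrays of 1 surface correlated across genes at 0.991 to 0.996, and arrays of different surfaces at 0.975 to 0.990. A value under 4.25, the 40th percentile of all gene means, is called dim here; a dim value is treated as an upper bound. Stellate cell genes ranged from high to dim. Vim, the mesenchymal filament vimentin, lay between 12.09 and 12.68 on all 9 arrays, while Gfap lay between 2.45 and 2.90 and was dim on all 9. Des, the desmin gene, lay between 6.65 and 6.89 on plastic and between 5.73 and 6.18 on collagen. On Matrigel it read 4.85 and 4.83, a fall of 1.93 ± 0.13 from plastic (limma, adjusted p = 0.000208). Lrat lay between 2.25 and 5.85, and was dim on 2 plastic arrays, all 3 collagen arrays and 1 Matrigel array. The RNA came from whole cultures, so fewer cells of a type and less RNA per cell cannot be told apart.

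Edn1, the ligand gene of the endothelin axis, was highest on plastic and lowest on Matrigel. The 4 plastic arrays read 7.16, 7.76, 6.77 and 7.61, with a mean of 7.33 ± 0.45 (SD, n = 4). The 3 collagen arrays read 4.48, 5.23 and 3.95, with a mean of 4.55 ± 0.64 (SD, n = 3). The 2 Matrigel arrays read 3.45 and 3.65, with a mean of 3.55 ± 0.14 (SD, n = 2). All plastic values lay above all values on either matrix. Both Matrigel values and collagen array 3 were dim, so their order among themselves is not settled.

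Edn1 fell by 3.78 ± 0.36 (SE) from plastic to Matrigel (95% interval -4.60 to -2.96; limma, adjusted p = 0.000769). With the dim Matrigel values raised to 4.25 the drop was at least 3.08 on the log2 scale, at least 8.45-fold lower. On collagen it fell by 2.77 ± 0.32 (95% interval -3.49 to -2.05; limma, adjusted p = 0.00163), a level 6.83-fold lower. Both calls were kept in all 21 alternative settings. The step from collagen to Matrigel, -1.01 ± 0.38 (95% interval -1.87 to -0.14), did not pass the test (limma, adjusted p = 0.221). It rests on dim values: with low values raised to 4.25 it was -0.41 (limma, adjusted p = 0.902). Because collagen array 3 was dim as well, no lower bound is given for this step. Titles carry a letter, and between arrays of the same letter Edn1 was lower by 3.72 (A) and 3.12 (S) on Matrigel. On collagen it was lower by 2.68 (A), 2.53 (P) and 3.66 (Z).

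**Figure D1:**
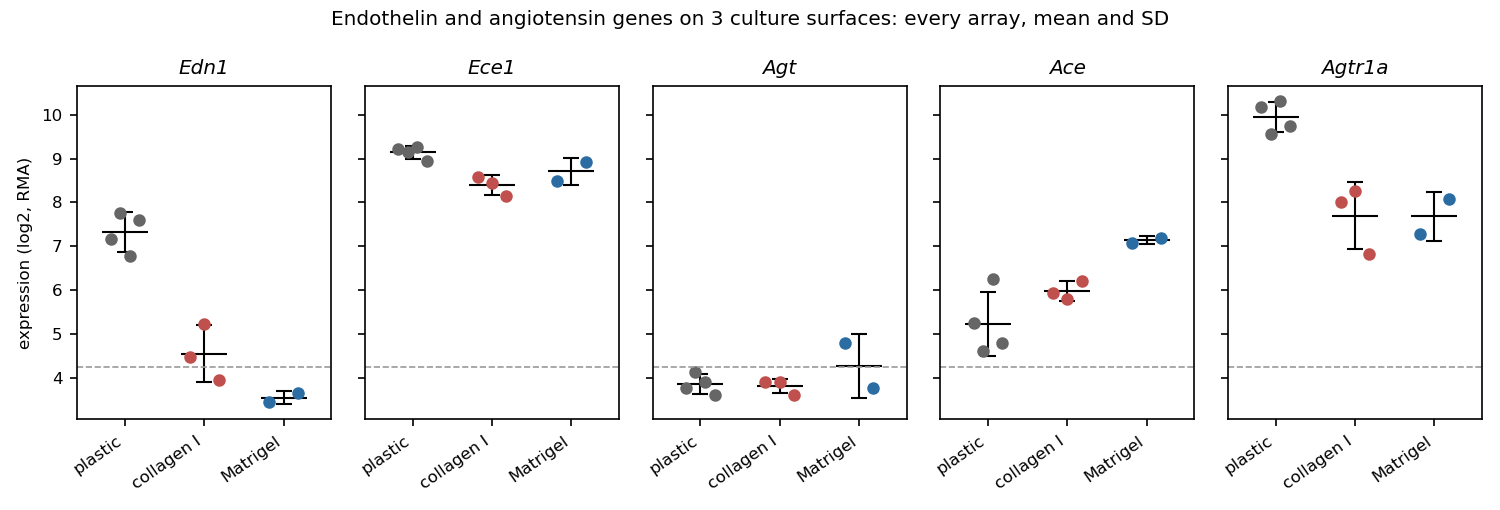
Log2 expression of the 5 measured genes on each array, 1 panel per gene, with plastic, collagen I and Matrigel along the x axis; points are arrays, long bars are group means, short bars mark the SD, and the dashed line is the dim level of 4.25. Plastic lies apart from both matrices for Edn1 and Agtr1a, and the 2 Matrigel arrays lie on top for Ace.

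Ece1, which encodes the enzyme that cuts big endothelin to its active form, moved far less. Plastic arrays read 9.23, 9.15, 9.26 and 8.94 (mean 9.14 ± 0.15 SD, n = 4). Collagen arrays read 8.58, 8.45 and 8.14 (mean 8.39 ± 0.23 SD, n = 3). Matrigel arrays read 8.49 and 8.93 (mean 8.71 ± 0.31 SD, n = 2). Every plastic array lay above every array on either matrix, while the 2 matrices overlapped.

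On collagen Ece1 fell by 0.76 ± 0.14 (95% interval -1.08 to -0.43; limma, adjusted p = 0.0159), a level 1.69-fold lower. That call was kept in 17 of 21 alternative settings. It was lost without collagen array 2 (adjusted p = 0.0529), without collagen array 3 (0.0552), without plastic array 1 (0.0575) and with low values raised to 4.25 (0.0557). The Matrigel difference of -0.44 ± 0.16 (95% interval -0.81 to -0.07) did not pass (limma, adjusted p = 0.137). It was -0.22 (adjusted p = 0.627) without Matrigel array 1 and -0.66 (adjusted p = 0.0744) without Matrigel array 2. Of 21 alternative settings it passed in 1, with the title letter as a fixed block (-0.57, adjusted p = 0.0359), and the letters settle no pairing for Matrigel.

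Agtr1a, the angiotensin II type 1 receptor gene, was high on plastic and lower by about the same amount on both matrices. Plastic arrays read 10.17, 9.57, 10.31 and 9.74 (mean 9.95 ± 0.35 SD, n = 4). Collagen arrays read 8.01, 8.25 and 6.83 (mean 7.69 ± 0.76 SD, n = 3). Matrigel arrays read 7.28 and 8.08 (mean 7.68 ± 0.57 SD, n = 2). No plastic array overlapped with either matrix, and the 2 matrices overlapped with each other. No array was dim for this gene.

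The fitted drop of Agtr1a was 2.26 ± 0.36 on collagen (95% interval -3.07 to -1.44; limma, adjusted p = 0.00734), a level 4.78-fold lower. On Matrigel it fell by 2.27 ± 0.41 (95% interval -3.20 to -1.35; limma, adjusted p = 0.00986), a level 4.84-fold lower. Matrigel minus collagen was -0.02 ± 0.43, with a 95% interval from -0.99 to 0.96, so a difference of nearly 2-fold either way lies within the interval. The collagen call was kept in all 21 alternative settings and the Matrigel call in 20, being lost without Matrigel array 1 (adjusted p = 0.0885). Same-letter arrays differed by -2.90 (A) and -2.24 (S) for Matrigel and by -2.17 (A), -1.33 (P) and -2.92 (Z) for collagen. The probes may also read the near-identical Agtr1b, whose own row was dim on all 9 arrays, at 1.89 to 2.19. Agtr2, the type 2 receptor gene, was dim on all 9 arrays too, at 2.20 to 4.11.

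Agt, the gene of the angiotensin precursor, was dim on 8 of 9 arrays. Plastic arrays read 3.77, 4.14, 3.90 and 3.60, collagen arrays 3.90, 3.90 and 3.62, and Matrigel arrays 4.79 and 3.76. The 3 values of 3.90 are identical to the last digit deposited. The groups overlapped in every pairing, and Matrigel array 1 alone rose past 4.25. No comparison of Agt passed the test. The differences were 0.43 ± 0.26 on Matrigel (95% interval -0.17 to 1.02; limma, adjusted p = 0.379) and -0.05 ± 0.23 on collagen (95% interval -0.57 to 0.47; adjusted p = 0.942). The Matrigel difference was -0.09 without Matrigel array 1, and 0.94 (adjusted p = 0.0325) without Matrigel array 2.

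Ace, which encodes the enzyme that makes angiotensin II, ran opposite to Agtr1a on Matrigel. Plastic arrays read 5.25, 4.61, 6.25 and 4.79 (mean 5.23 ± 0.74 SD, n = 4). Collagen arrays read 5.93, 5.79 and 6.22 (mean 5.98 ± 0.22 SD, n = 3). Matrigel arrays read 7.07 and 7.20 (mean 7.14 ± 0.09 SD, n = 2). Both Matrigel arrays lay above all others, while plastic array 3 lay above every collagen array and the other 3 plastic arrays lay below them.

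Ace rose by 1.91 ± 0.39 on Matrigel (95% interval 1.01 to 2.81; limma, adjusted p = 0.0175), a level 3.76-fold higher. The call held in 16 of 21 alternative settings. It was lost without Matrigel array 1 (adjusted p = 0.0911), without Matrigel array 2 (0.0888), with only the plastic arrays of the shared letters (difference 1.38, adjusted p = 0.0704), with only those 2 surfaces fitted (0.0605) and with low values raised to 4.25 (0.0602). On collagen the difference of 0.75 ± 0.35 (95% interval -0.04 to 1.54) did not pass (limma, adjusted p = 0.287). Without plastic array 3 it was 1.10 and passed (adjusted p = 0.015). Same-letter arrays differed by 1.82 (A) and 0.95 (S) on Matrigel and by 0.68 (A), 1.18 (P) and 1.43 (Z) on collagen. Matrigel minus collagen was 1.15 ± 0.41 (95% interval 0.21 to 2.10) and did not pass (limma, adjusted p = 0.201). Of 20 alternative settings it passed in 1, without plastic array 3 (adjusted p = 0.0357), and with the title letter as a fixed block it was 0.54 (adjusted p = 0.469).

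**Figure D2:**
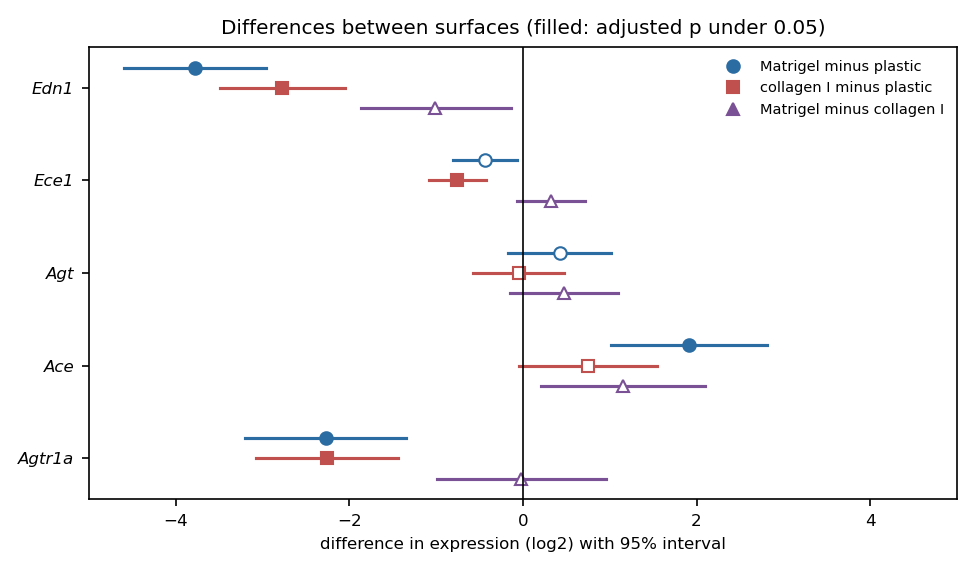
Fitted log2 differences of the 5 genes for the 3 comparisons, with 95% intervals; filled points passed the test (limma, adjusted p under 0.05) and open points did not. The Edn1 and Agtr1a points for both matrices lie at -2.26 or below, Ace on Matrigel lies at 1.91, and no Matrigel against collagen I point is filled.

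Counted together on Matrigel against plastic, 3 of the 5 genes passed, with Ace higher and Edn1 and Agtr1a lower, where 10.4% of all genes passed (4.52% higher and 5.85% lower). The arrays of those groups did not overlap for 4 of the 5, where that held for 30.2% of all genes. On collagen I against plastic, 3 of the 5 passed, all lower (Edn1, Agtr1a and Ece1), where 6.12% of all genes passed (2.95% higher and 3.17% lower). The arrays did not overlap for these 3, where that held for 17.2% of all genes. Between Matrigel and collagen I none of the 5 passed in limma, where 2.67% of all genes passed (1.21% higher and 1.45% lower). An unadjusted p under 0.05 was met by 2 (Ace and Edn1), and the share of all genes meeting it was not counted. The arrays did not overlap for Ace and, by its partly dim values, Edn1, where that held for 29.5% of all genes. Both matrix comparisons use the same 4 plastic arrays, so the members' values in them are not independent of each other. With 5 genes these counts describe the members and nothing more general.

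The genes whose array values most resembled each member were found among 1652 genes above the dim level with a range of at least 1. The measure was Pearson's r over the 9 arrays, which share 3 surfaces and 1 normalization. For Edn1 they were Dennd2b (r = 0.989), Rras2 (0.987), a Ras-family GTPase, and Jade1 (0.985). For Agtr1a they were Otulinl (r = 0.992), Ddr1 (0.988), a collagen receptor kinase, and Ephb2 (0.985), an ephrin receptor. For Ece1 they were Ifitm3 (r = 0.976), Scara5 (0.976) and Mzt2b (0.971). For Ace they were Prex1 (r = 0.978), a Rac exchange factor, Dab2 (0.970), an endocytic adaptor, and Abca2 (0.958).

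Among the other ligands and processing enzymes of the endothelin axis, 1 of 9 measured genes rose on each matrix and none fell. That was 11.1% called, beside 10.4% of all genes on Matrigel and 6.12% on collagen. The gene was Furin, whose product makes the first cut in the Edn1 precursor. Furin rose by 0.90 ± 0.13 on Matrigel (limma, adjusted p = 0.00409) and by 0.66 ± 0.12 on collagen (adjusted p = 0.0118), while Edn1 fell on both. The list's median difference was -0.03 on Matrigel and 0.05 on collagen, beside -0.01 and 0.00 over all genes. The other ligand genes were dim: Edn3 lay between 3.32 and 3.47 on all 9 arrays, and Edn2 between 3.47 and 4.23. Mme, which encodes the endothelin-degrading peptidase neprilysin, lay between 10.07 and 10.92, and its differences did not pass (Matrigel -0.17 ± 0.20, adjusted p = 0.697, collagen 0.26 ± 0.18, adjusted p = 0.505).

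Of 19 other renin-angiotensin genes measured, 1 rose and 2 fell on Matrigel, and 1 fell on collagen. That was 15.8% called on Matrigel, beside 10.4% of all genes, and 5.26% on collagen, beside 6.12%. The list's median difference was -0.03 and -0.07. Prcp, which encodes a carboxypeptidase that inactivates angiotensin II, fell on both, by 0.98 ± 0.08 on Matrigel (limma, adjusted p = 0.000529) and by 0.67 ± 0.07 on collagen (adjusted p = 0.00131). Rnpep, which encodes aminopeptidase B, fell by 0.70 ± 0.14 on Matrigel (adjusted p = 0.0169), a call lost without Matrigel array 1 (adjusted p = 0.115) or array 2 (0.0525) and with only the plastic arrays of the shared letters (0.0878). Enpep, which encodes the aminopeptidase that turns angiotensin II into angiotensin III, rose by 1.32 ± 0.33 on Matrigel (adjusted p = 0.0388), a call kept in 12 of 21 alternative settings. The Mas receptor gene, Mas1, was dim on all 9 arrays.

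Downstream of the receptors, of 35 measured genes of Gq and G12/13 signalling 3 rose and 2 fell on Matrigel (14.3% called, beside 10.4% of all genes), and 2 rose and 2 fell on collagen (11.4%, beside 6.12%). The median differences were 0.09 and 0.03. Rock2 fell by 1.16 ± 0.13 on Matrigel (limma, adjusted p = 0.00152) and by 0.63 ± 0.12 on collagen (adjusted p = 0.0146). Grk5, which encodes a kinase that desensitises receptors, fell by 1.19 ± 0.18 on Matrigel (adjusted p = 0.0054) and by 1.29 ± 0.16 on collagen (adjusted p = 0.00262). Its Matrigel call was lost with only the plastic arrays of the shared letters (adjusted p = 0.0563). Gna12, the G12 alpha subunit gene, rose by 0.45 ± 0.07 on Matrigel (adjusted p = 0.00677), a call lost without Matrigel array 1 (0.0528). Trpc1, a cation channel gene, rose by 0.56 ± 0.11 on collagen (adjusted p = 0.019), a call kept in 13 of 21 alternative settings. Rgs2, which encodes a brake on Gq, rose by 1.15 ± 0.25 on collagen (adjusted p = 0.0325), a call kept in 11 of 21 alternative settings. Between the matrices no gene of the endothelin, renin-angiotensin or signalling lists passed in limma, where 2.67% of all genes passed. An unadjusted p under 0.05 was met by 0, 3 and 11 of them. The share of all genes meeting it was not counted, so these counts are not read as a result.

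A list of 31 measured genes known to be induced by endothelin or angiotensin II held 10 that rose and 3 that fell on Matrigel. On collagen 14 rose and none fell. That was 41.9% called on Matrigel, beside 10.4% of all genes, and 45.2% on collagen, beside 6.12%. The list's median differences were 0.21 and 0.65, while Edn1 and Agtr1a themselves were lower on both matrices. Many other stimuli induce these genes too. Ptgs2, the cyclooxygenase 2 gene, rose by 2.70 ± 0.17 on Matrigel (limma, adjusted p = 0.000167) and by 3.12 ± 0.15 on collagen (adjusted p = 3.18e-05). Ier3, an immediate early response gene, rose by 1.44 ± 0.13 and 1.70 ± 0.11 (adjusted p = 0.000601 and 0.000178). Egr1, an immediate early transcription factor gene, rose by 1.84 ± 0.19 and 1.30 ± 0.17 (adjusted p = 0.00116 and 0.00317). Fos, which encodes an AP-1 subunit, rose on collagen by 2.53 ± 0.16 (adjusted p = 0.000143) and differed by 0.22 ± 0.18 on Matrigel (adjusted p = 0.546). Jun, its partner, rose by 2.26 ± 0.14 on collagen (adjusted p = 0.000143). The 3 that fell on Matrigel were Nr4a3, a nuclear receptor gene, by 1.45 ± 0.23 (adjusted p = 0.00646), the matricellular gene Ccn1 by 0.96 ± 0.23 (adjusted p = 0.0319) and Lox, the collagen crosslinking enzyme gene, by 0.47 ± 0.11 (adjusted p = 0.0342). These calls were kept in 19, 14 and 13 of 21 alternative settings, and all 3 were lost without Matrigel array 1 (adjusted p = 0.0635, 0.214 and 0.206). Between the matrices 5 of the 31 were lower on Matrigel (16.1%, beside 2.67% of all genes). Among them were Nr4a3 by 1.90 ± 0.25 (limma, adjusted p = 0.0138), Fos by 2.32 ± 0.19 (adjusted p = 0.0038) and Jun by 1.56 ± 0.17 (adjusted p = 0.00818). With only those 2 surfaces fitted 0 of the 14506 genes passed, so the loss of these calls is not particular to the list. The adjusted p of both Fos and Jun was then 0.119. The contractile actin gene Acta2 did not pass on either matrix (Matrigel -1.23 ± 0.39, adjusted p = 0.0892, collagen 0.35 ± 0.34, adjusted p = 0.668).

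Of 36 other vasoactive genes, 2 rose and 6 fell on Matrigel, and 2 rose and 5 fell on collagen. That was 22.2% called on Matrigel, beside 10.4% of all genes, and 19.4% on collagen, beside 6.12%. The list's median differences were -0.08 and -0.06. Avpr1a, the vasopressin V1a receptor gene, fell like Agtr1a on both, by 3.02 ± 0.21 on Matrigel (limma, adjusted p = 0.000224) and by 1.44 ± 0.19 on collagen (adjusted p = 0.00294). It was also lower on Matrigel than on collagen, by 1.57 ± 0.22 (adjusted p = 0.0145). That call was lost with the title letter as a fixed block (0.0646). It was also lost with only those 2 surfaces fitted (0.136), where 0 of the 14506 genes passed. Ramp3, which encodes a partner of adrenomedullin receptors, fell by 2.34 ± 0.22 and 2.36 ± 0.19 (adjusted p = 0.00076 and 0.000401). Adm, the gene of the vasodilator adrenomedullin, fell by 1.44 ± 0.23 and 1.68 ± 0.20 (adjusted p = 0.00602 and 0.00203). The Matrigel call of Adm was lost without Matrigel array 1 (adjusted p = 0.0592) or with only the plastic arrays of the shared letters (0.0516). Gucy1b1, which encodes a subunit of the nitric oxide receptor, fell by 1.47 ± 0.22 on collagen (adjusted p = 0.00601) and by at least 1.80 on Matrigel (adjusted p = 0.00152), where it was dim. The genes that rose were Apln and Ptger4 on Matrigel, with calls kept in 14 and 16 of 21 alternative settings. On collagen they were Bdkrb1 and Ptger4, with calls kept in 17 and 14 of 21.

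**Figure D3:**
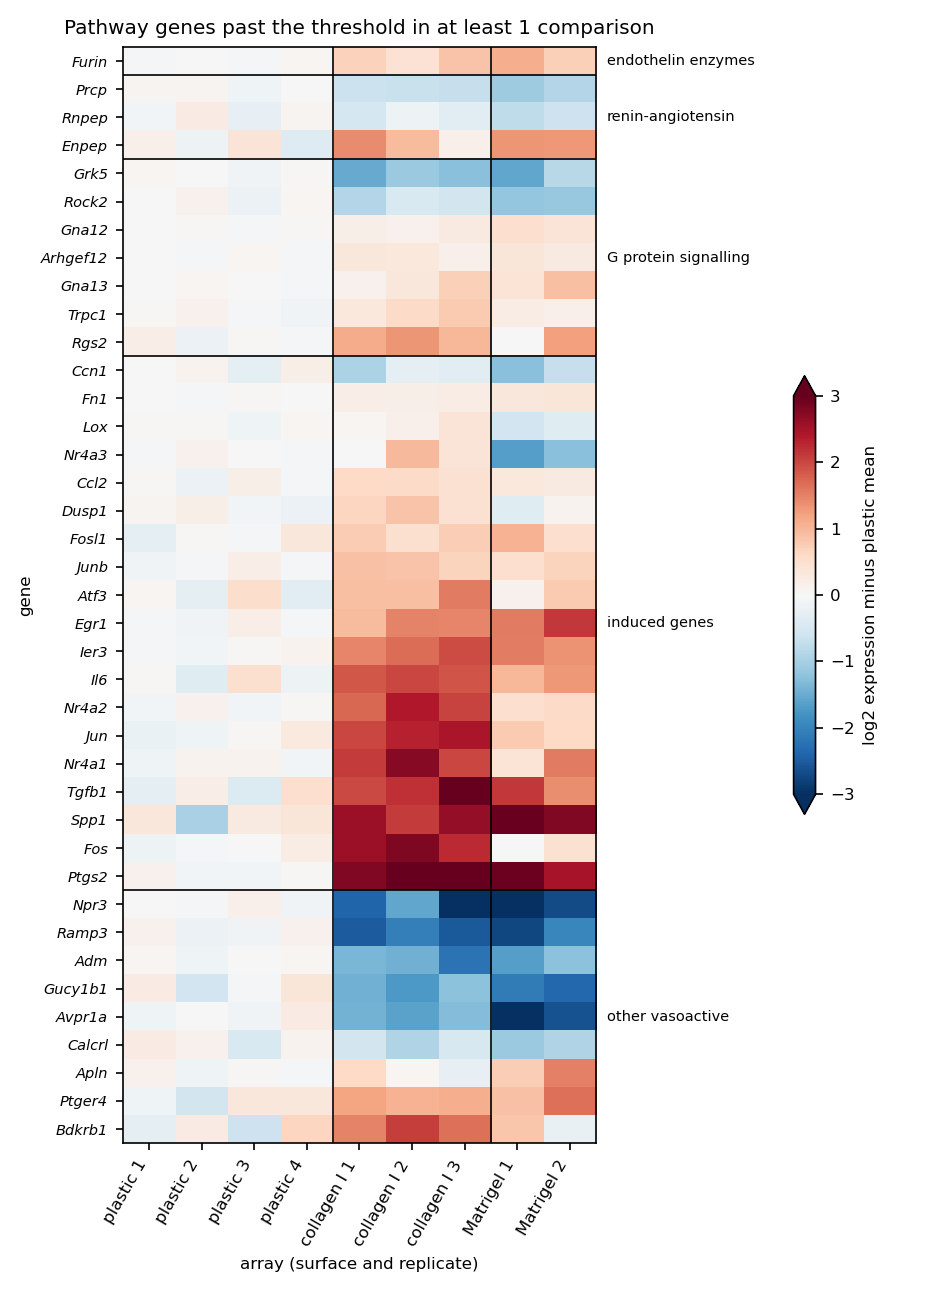
Log2 expression of 39 genes of the pathway lists on the 9 arrays, each row minus its plastic mean, with colours that stop at a difference of 3 either way; rows are genes that passed the test in at least 1 comparison, grouped by list, and columns are arrays grouped by surface. Furin is higher and Prcp, Rock2, Grk5, Avpr1a and Ramp3 are lower on both matrices than on plastic.

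Markers of other cell types were set beside these results, because endothelial cells express Edn1 and Ace and macrophages can express Ace. Endothelial list means (17 genes, 11 of them dim) lay between 4.38 and 4.46 on plastic, between 4.39 and 4.44 on collagen, and at 4.56 and 4.44 on Matrigel. The defining genes Pecam1 (2.51 to 3.16) and Cdh5 (2.86 to 3.07) were dim on all 9 arrays. Of the 17 genes, 1 rose and 1 fell on Matrigel (11.8% called, beside 10.4% of all genes). Egfl7 fell by 0.34 (limma, adjusted p = 0.0196), and Tie1 rose by 1.05 ± 0.16 (adjusted p = 0.00462). Macrophage list means (23 genes, 3 of them dim) were 6.62, 5.98, 6.91 and 6.03 on plastic, 6.07, 6.19 and 6.91 on collagen, and 7.20 and 7.41 on Matrigel. The Matrigel arrays were highest for these markers as they were for Ace, and plastic array 3 was highest within plastic for both. On Matrigel 3 of the 23 rose (13%, beside 10.4% of all genes), with a median difference of 1.04. Among them were Laptm5 by 1.62 ± 0.34 (limma, adjusted p = 0.02) and Itgb2 by 1.53 ± 0.36 (adjusted p = 0.0291). On collagen none passed in limma, beside 6.12% of all genes, and the median difference was 0.03. An unadjusted p under 0.05 was met by 2, and the share of all genes meeting it was not counted. The part of these cells in the Ace result was not tested.

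Islet and acinar markers were also higher on Matrigel. Islet list means (16 genes, 8 of them dim) lay between 4.65 and 5.43 on plastic and between 4.87 and 5.47 on collagen. On Matrigel they were 6.83 and 5.81, with 8 genes passing upward (50%, beside 10.4% of all genes). These means hide hormone genes that were high on every surface, plastic included. Ins1 lay between 8.92 and 12.17 over the 9 arrays, Ins2 between 7.53 and 11.19 and Gcg between 7.92 and 11.49. Acinar list means (22 genes, 19 of them dim) lay between 3.21 and 3.33 on plastic and between 3.24 and 3.50 on collagen. On Matrigel they were 4.27 and 3.64, with 3 genes passing upward (13.6%). Matrigel array 1, the single array on which Agt was not dim, was highest in the islet, acinar and duct lists. The part of these cells in that Agt value was not tested. Stellate cell list means (17 genes, 2 of them dim) lay between 9.76 and 9.99 on plastic and collagen. On Matrigel they were 9.43 and 9.56, with 2 genes rising and 4 falling (35.3% called). Smooth muscle and pericyte cells, which also carry the type 1 angiotensin receptor, had list means (12 genes, 5 of them dim) of 4.86 to 4.95 on plastic, 4.46 to 4.61 on collagen, and 4.26 and 4.71 on Matrigel. These means were below every plastic array on both matrices, as Agtr1a and Edn1 were, but the list's median difference was -0.08 on Matrigel and -0.03 on collagen. Abcc9 (8.26 ± 0.68 on plastic, 5.60 ± 0.35 on collagen, 5.18 and 8.57 on Matrigel) and Kcnj8 (6.36 ± 0.81, 4.19 ± 0.19, 3.96 and 6.51), a channel's subunit genes, moved most, and neither passed. Without this pair the means of the other 10 genes overlapped between plastic (4.30 to 4.55) and collagen (4.40 to 4.51), and were 4.20 and 4.14 on Matrigel. The pair was left out after its values were seen, because it moved most. A smaller difference follows from that choice, and no conclusion is drawn from it. On Matrigel 2 of the 12 genes fell (16.7%, beside 10.4% of all genes). They were Lmod1 by 0.49 ± 0.09 (limma, adjusted p = 0.0135) and Mylk by 0.76 ± 0.17 (adjusted p = 0.0263). On collagen none passed in limma, beside 6.12% of all genes. An unadjusted p under 0.05 was met by 3, and the share of all genes meeting it was not counted. Myh11, the defining smooth muscle myosin gene, was dim on all 9 arrays, at 3.70 to 4.14, and Cspg4 and Rgs5 were dim on all 9 too. The part of these cells in the Agtr1a and Edn1 results was not tested.

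**Figure D4:**
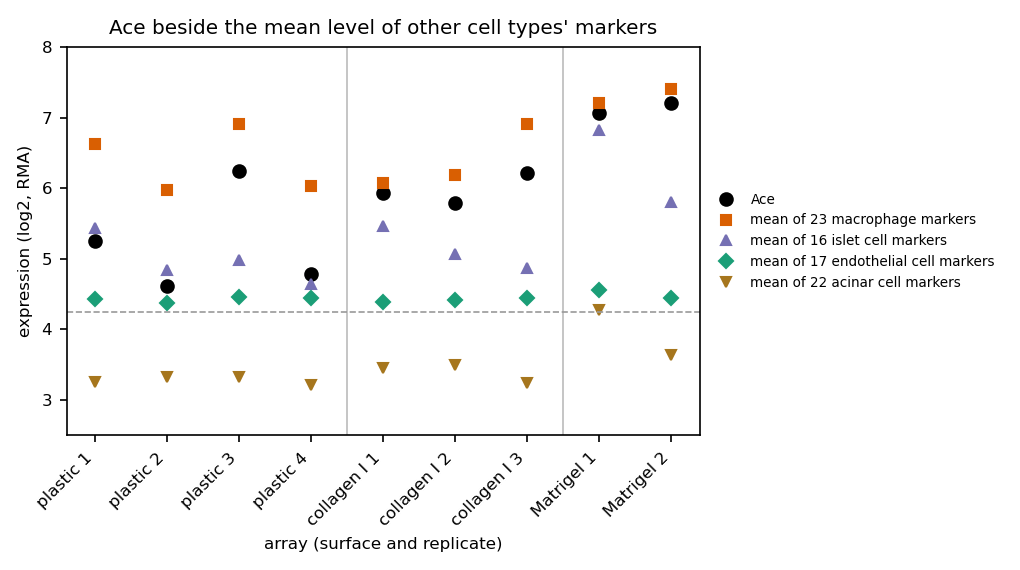
Log2 level of Ace beside the mean log2 level of the macrophage, islet, endothelial and acinar marker lists on each array, grouped by surface. The 2 Matrigel arrays are highest for Ace (7.07 and 7.20). They are also highest for the macrophage (7.20 and 7.41), islet (6.83 and 5.81) and acinar (4.27 and 3.64) lists. The endothelial list stays between 4.38 and 4.56 on all 9 arrays.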

How the data were processed

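The deposited series table holds 1 log2 value per probe set and array. The authors derived these log2 values with RMA, per the submitters' processing notes. Software release and genome build were not given in the sources used here. Of 29215 entries, 15310 name exactly 1 gene, and the brightest entry per gene was kept, leaving 14506 genes. The model was limma 3.58.1 (R 4.3.3): a mean for each surface, all 9 arrays, 6 residual degrees of freedom, no variance trend. P-values (2-sided) were Benjamini-Hochberg adjusted across all genes of each comparison, and genes under 0.05 passed. The script was tested on simulated data. The number of arrays limits the precision.

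The members and lists were chosen with earlier results of these data known. The rule for naming took the members and up to 4 called genes of smallest p per list and comparison. It also took 3 genes most like each member above the dim level, and markers that check the cells. The text prints a part of these. Mas1, Agtr1b, Agtr2, Edn2, Edn3, Mme, Acta2, Myh11, Cspg4, Rgs5, Abcc9, Kcnj8 and Ccn1 were added after their values were seen. So were Des, Lrat, Ins1, Ins2, Gcg, Apln, Ptger4, Bdkrb1, the duct list means and, on Matrigel, Lox, Fos and Jun. Alternatives were other scalings, filters, moderation, array weights, sample sets, blocks by title letter and leaving out each array.

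Pairing by title letter was checked on deviations from group means across genes. Collagen arrays correlated with their plastic namesakes at 0.196 (A), 0.234 (P) and 0.269 (Z), and were read as paired, although the labels do not explain the letters and collagen array A correlated more with plastic array S (0.243). The other unlike pairs of collagen and plastic lay between -0.243 and 0.00913. For Matrigel the values were -0.131 (A) and 0.406 (S), which settle no pairing.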

Additional observations from a re-analysis of the deposited data

Results flagged for a closer look

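In 3 genes of the pathway lists, 1 of the 4 plastic arrays stood apart from the others: Gna12 at 8.74 on array 3, Spp1 at 8.37 on array 2 and Lox at 10.93 on array 3 (log2). Each lay farther from its neighbour than Dixon's 95% limit for 4 values allows. Of 56 genes looked at, chance flags about 1 in 20. None of the 5 members was among them.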

How the results depend on the processing

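Edn1 was called on both matrices in all 21 alternative settings, with differences of -3.96 to -3.08 on Matrigel and -3.11 to -2.47 on collagen. The number of members called was 1 to 3 on Matrigel when each array was left out in turn, with Edn1 alone called without Matrigel array 1, and 2 to 4 in the other 12 settings. On collagen it was 2 to 4 in both kinds of setting, and between the matrices 0 to 1 with an array left out and 0 otherwise. A lone remaining Matrigel array is assumed to vary like the other groups. With the title letter as a fixed replicate block, Edn1 differed by -2.89 on collagen (adjusted p = 0.0028), and the block changed no member call there; on Matrigel it added Ece1.

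Differences near 0 changed sign. For Agt they ran from -0.09 to 0.94 on Matrigel, -0.13 to 0.05 on collagen and -0.04 to 0.99 between the matrices as arrays were left out, and array weights gave 0.00 on collagen. For Agtr1a between the matrices they ran from -0.45 to 0.38, and quantile normalization applied again gave 0.02. Over all genes, 1504 passed on Matrigel (759 to 1461 with an array left out, 628 to 2065 otherwise), 888 on collagen (552 to 870, 575 to 1144) and 387 between the matrices (68 to 352, 0 to 475, with 0 when those 2 surfaces alone were fitted). Counts in the lists moved too: on Matrigel the induced genes gave 10 higher (6 to 12) and 3 lower (0 to 4), the vasoactive genes 2 higher (0 to 2) and 6 lower (3 to 8), the signalling genes 3 higher (1 to 4) and 2 lower (1 to 3), and the renin-angiotensin genes 1 higher (0 to 2) and 2 lower (1 to 2). On collagen the signalling and the vasoactive genes each gave 2 higher (0 to 3), and between the matrices the induced genes gave 5 lower (0 to 7). The cause of these changes was not tested.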
